A study of Mus musculus with 6 samples.

Results

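The Hox genes are the homeobox genes of the 4 Hox clusters. All 39 of them were found among the 56393 genes of the count table by matching Ensembl identifiers to symbols of the form Hox, a cluster letter and a paralog number. They were read in mouse vascular smooth muscle cells, called primary in the labels, in 3 Nono knockout libraries (KO) and 3 wild-type libraries (WT). Nono encodes a nuclear protein that binds RNA and DNA. Cells of both genotypes grew in serum-containing medium and received no further treatment. The sources used here do not give how the Nono allele was made, the vessel, or the age and sex of the animals. Nor do they say if libraries of a genotype came from different cultures or mice, so a p-value reflects the spread between these libraries, which may be technical.

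The clusters of mammals are named HoxA to HoxD. Genes of low paralog number sit at the 3′ end of a cluster and are used towards the head, and genes of high paralog number sit at the 5′ end and are used towards the tail, so the set a cell transcribes is called its positional code. Their proteins are homeodomain transcription factors that bind DNA with cofactors of the TALE class, the Pbx, Meis and Pknox proteins. Polycomb complexes keep parts of a cluster silent, trithorax complexes hold other parts active, and retinoic acid opens clusters from the 3′ end. Cultured smooth muscle cells and fibroblasts are known to keep a Hox code that follows the body region they came from. In mouse the clusters lie on chromosomes 6 (HoxA), 11 (HoxB), 15 (HoxC) and 2 (HoxD).

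The 2 genotypes carried different positional codes. In KO cells HoxA genes were counted at a mean of 1 CPM (TMM-scaled reads relative to library depth) or more up to Hoxa7. In WT cells they were so counted up to Hoxa10. Hoxa10 averaged 0.926 CPM in KO, just under that level, so the HoxA end point in KO depends on the cutoff. In both genotypes HoxB transcription began at Hoxb2. It reached that level up to Hoxb9 in KO cells and up to Hoxb13 in WT cells. Genes of paralog groups 9 to 13 that were tested were all lower in KO, by 11.3-fold to 51.0-fold. Of these, Hoxa9 and Hoxb13 passed the filter on low counts through their WT counts. Hoxa11, with 12 counts in KO and 0 in WT, was not tested. Most tested HoxA and HoxB genes of groups 1 to 7 were higher in KO, by 1.3-fold to 5.59-fold. HoxC was transcribed at a low level in WT and less in KO, and in HoxD only Hoxd4 passed the filter on low counts, with reads in KO alone.

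The step in HoxA falls between Hoxa7, which was higher in KO, and its neighbours Hoxa9 and Hoxa10, which were lower. Their RefSeq promoter windows (GRCm38.p6, 250 bases before to 50 after an annotated start, minus strand) are shown because they span that step. CpG dinucleotides, which are dense at the starts that Polycomb complexes bind, are in capitals. Each sequence runs 5′ to 3′. Hoxa10 has a window for each of 2 annotated starts, and the inner start is the one nearer to Hoxa9. The counts were made on another build, GRCm39 per the submitters' processing notes, so the coordinates hold for the windows alone. The Hoxa7 window is at chr6:52218524-52218823, that of Hoxa9 at chr6:52227321-52227620, and those of Hoxa10 at chr6:52234890-52235189 and chr6:52240805-52241104.
Hoxa7: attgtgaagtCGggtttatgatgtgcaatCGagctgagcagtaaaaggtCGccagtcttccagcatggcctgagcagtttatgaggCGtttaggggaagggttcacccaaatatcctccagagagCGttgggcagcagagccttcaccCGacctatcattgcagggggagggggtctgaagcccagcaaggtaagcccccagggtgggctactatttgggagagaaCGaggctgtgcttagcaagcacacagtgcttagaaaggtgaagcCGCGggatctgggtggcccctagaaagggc
Hoxa9: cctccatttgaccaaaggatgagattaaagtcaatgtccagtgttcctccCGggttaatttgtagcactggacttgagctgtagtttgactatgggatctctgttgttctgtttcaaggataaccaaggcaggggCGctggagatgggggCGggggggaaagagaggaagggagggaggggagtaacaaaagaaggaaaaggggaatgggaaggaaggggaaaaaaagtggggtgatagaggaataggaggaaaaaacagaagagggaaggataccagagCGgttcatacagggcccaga
Hoxa10, inner start: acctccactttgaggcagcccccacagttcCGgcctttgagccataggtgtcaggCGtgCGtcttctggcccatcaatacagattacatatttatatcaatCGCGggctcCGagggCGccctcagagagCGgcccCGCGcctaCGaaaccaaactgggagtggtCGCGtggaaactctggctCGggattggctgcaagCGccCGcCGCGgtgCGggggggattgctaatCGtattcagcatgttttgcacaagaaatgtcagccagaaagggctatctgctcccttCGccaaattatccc
Hoxa10, outer start: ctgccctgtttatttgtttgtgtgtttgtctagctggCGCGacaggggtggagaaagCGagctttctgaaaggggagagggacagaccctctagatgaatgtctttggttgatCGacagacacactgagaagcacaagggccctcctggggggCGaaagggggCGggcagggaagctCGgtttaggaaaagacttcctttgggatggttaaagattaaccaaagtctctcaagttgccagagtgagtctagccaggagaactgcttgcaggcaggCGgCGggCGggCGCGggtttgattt

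The Hoxa7 window held 9 CpG, the Hoxa9 window 4, and the Hoxa10 windows 21 and 12, so CpG number did not order these genes by their direction. Promoter windows were found for 22 of the 39 Hox genes, 24 windows in all, with a median of 14.5 CpG against 7 over all 32851 windows in the table. The windows of 7 genes that were higher in KO held 4 to 29 CpG (median 14), and those of 3 genes that were lower held 4 to 21 (4 windows, median 10.5). Among motifs searched on both strands, CCAAT was in 15 of 24 Hox windows (62.5%) against 37.4% of all windows, and TATAAA in 4 (16.7%) against 13.6%. The letters TGACAG, bound by Meis proteins, were in 2 Hox windows (8.33%) against 19.2% of all windows. TGATTNAT, bound by Hox and Pbx proteins together, was also in 2 (8.33%), against 3.22% of all windows. A match describes the sequence and says nothing of binding in these cells.

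Depth was similar across libraries, with 57295800 to 61670083 counts in KO and 56529170 to 60864603 in WT. Nono was at 54.0 ± 2.55 CPM in KO and 514.9 ± 10.996 CPM in WT (SD, n = 3 each), lower in every KO library (edgeR quasi-likelihood test, adjusted p = 1.63e-09). The Y-linked genes Eif2s3y, Kdm5d, Uty and Ddx3y together reached 149.9 to 163.3 CPM in KO and 0 to 0.0795 CPM in WT, and Xist was under 1 CPM on average in both. Of 7 smooth muscle markers 5 were higher and 1 lower in KO, with summed levels of 244.7 to 249.0 CPM in KO and 67.2 to 75.9 CPM in WT, and Myh11, the smooth muscle myosin, was under 1 CPM on average in both. Of 7 fibroblast markers 6 were higher in KO, the sums being 10650 to 11530 CPM in KO and 874.8 to 1026 CPM in WT, with Lum at 0 counts in WT. Epithelial and mesothelial markers summed to 8.25 to 11.3 CPM in KO and 77.0 to 84.7 CPM in WT, with Epcam and Krt18 at 0 in both. Of the 3 tested, 1 was higher and 2 were lower in KO. Cardiac and skeletal muscle markers reached 1.67 to 3.87 CPM in KO and 35.0 to 38.2 CPM in WT, with Actc1, Myod1 and Myog at 0 in both. Endothelial markers summed to 0.564 to 0.9502 CPM in KO and 3.04 to 3.50 CPM in WT, with Kdr, Cdh5 and Emcn at 0 in KO. Macrophage and leukocyte markers summed to 5.20 to 6.21 CPM in KO and 9.14 to 10.5 CPM in WT, with Ptprc and Adgre1 at 0 in both. The sum did not give the direction of most of them, as 2 of the 3 tested were higher in KO and 1 lower. These differences separate the same libraries as genotype, so the 2 cannot be told apart, and their part in the Hox results was not tested. In bulk samples, fewer cells of a type and less RNA per cell cannot be told apart.

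Of the 39 Hox genes, 22 passed the filter on low counts. Of these 22, 11 were higher in KO, 8 were lower and 3 did not pass an adjusted p of 0.05 (edgeR quasi-likelihood test, Benjamini-Hochberg adjustment over all 18732 tested genes). Over all tested genes 69.3% passed, 35.1% higher and 34.2% lower. The 3 values of each genotype did not overlap in 19 of the 22 genes, where the share over all tested genes was 75.5%. Passing the test was therefore common in this comparison, and the number of Hox genes called is not a result particular to them. The median log2 fold change was 0.17 over the 22 genes and 0.03 over all tested genes. By paralog group, 4 of 5 tested genes of groups 1 to 3 were higher and 1 was lower, and of 13 tested genes of groups 4 to 8, 7 were higher and 3 lower. All 4 tested genes of groups 9 to 13 were lower, out of 16 genes in those groups. Hoxa11, an untested gene of those groups, had counts in KO alone.

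**Figure D1:**
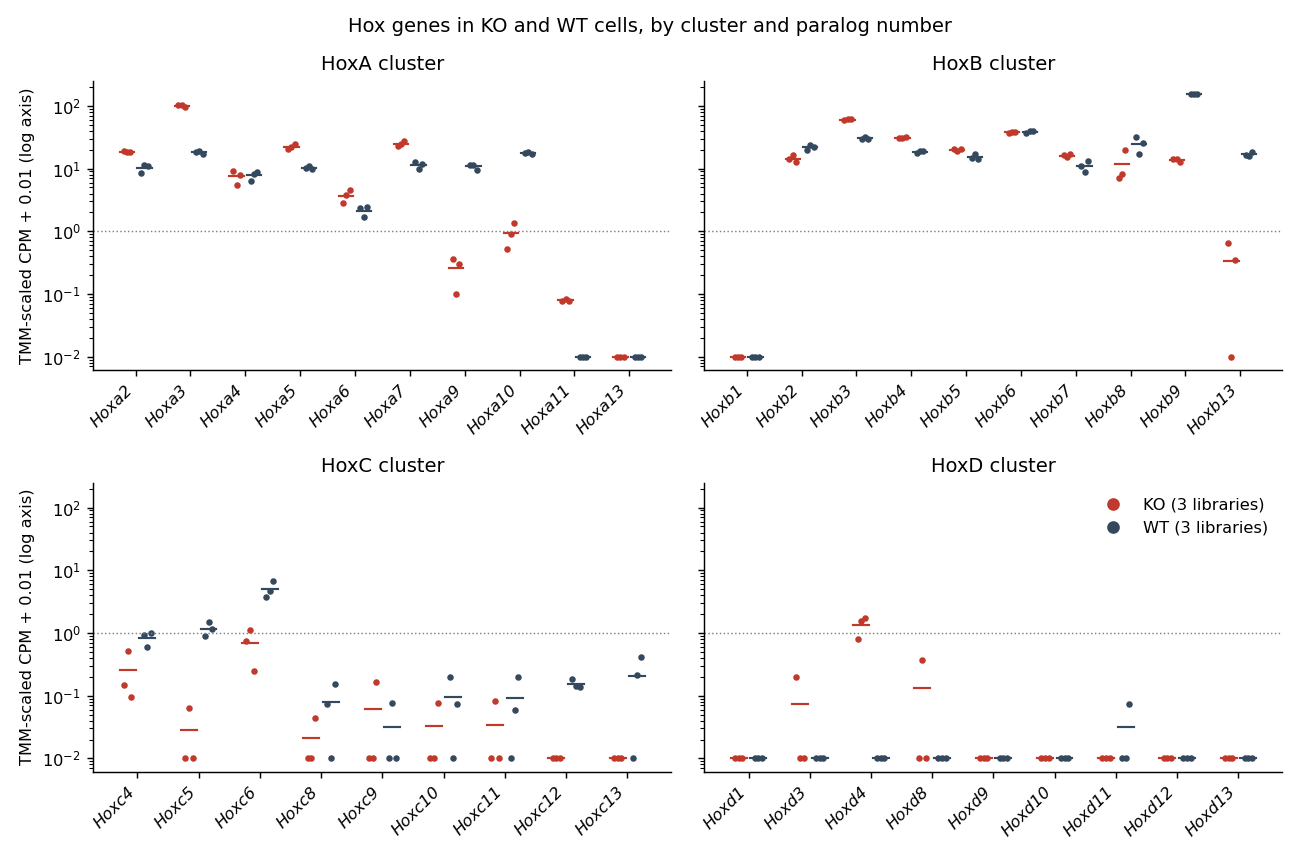
TMM-scaled CPM plus 0.01 on a log axis for 38 Hox genes, ordered by paralog number in 4 cluster panels, with a point for each KO library (red, left) and WT library (dark blue, right), a line at each mean and a dotted line at 1 CPM. Points at 0.01 are libraries with 0 counts; Hoxa9, Hoxa10 and Hoxb13 lie under 1 CPM on average in KO and above 10 CPM in WT.

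In HoxA, 5 of the 6 genes from Hoxa2 to Hoxa7 were higher in KO. Hoxa3, needed for the thymus, parathyroid and carotid artery, differed most. It had 105, 103 and 95.4 CPM in the KO libraries, against 18.2, 19.1 and 16.9 CPM in the WT libraries. Every KO library was thus above every WT library, with a log2 fold change of 2.48 ± 0.07 (SE, edgeR adjusted p = 2.40e-08). Hoxa2, which sets the identity of the second pharyngeal arch, had 18.8, 18.6 and 18.6 CPM in KO and 8.53, 11.6 and 10.8 CPM in WT, a 1.81-fold difference with no overlap (edgeR adjusted p = 0.000393). Hoxa5, required for lung and trachea, had 20.5, 22.1 and 24.7 CPM in KO and 10.2, 10.8 and 9.81 CPM in WT, 2.18-fold higher (edgeR adjusted p = 1.98e-05). Hoxa7, a gene of the trunk, had 22.9, 24.4 and 27.3 CPM in KO and 12.8, 9.92 and 11.9 CPM in WT. The KO libraries were again all above the WT libraries, by 2.16-fold on average (edgeR adjusted p = 5.87e-05).

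Hoxa6 and Hoxa4 of the same stretch were nearer to the threshold or missed it. Hoxa6 averaged 3.71 ± 0.86 CPM in KO and 2.13 ± 0.39 CPM in WT (edgeR adjusted p = 0.0206), a call lost without KO replicate 2 (0.0509), KO replicate 3 (0.0792) or WT replicate 2 (0.0602). Hoxa4 had 9.24, 5.38 and 7.89 CPM in KO and 6.40, 8.32 and 8.76 CPM in WT. Its groups overlapped and it missed the threshold (log2 fold change -0.06, SE 0.22, with an adjusted p by edgeR of 0.82).

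At the 5′ side of HoxA the direction turned. Hoxa9, a gene known from blood stem cells, had 0.358, 0.0909 and 0.288 CPM in the KO libraries, against 11.6, 11.4 and 9.57 CPM in the WT libraries. All KO values lay far under all WT values, a 43.4-fold difference (log2 fold change -5.44, SE 0.36, with an adjusted p by edgeR of 2.52e-06). Hoxa10, which patterns lumbar vertebrae and the uterus, had 0.511, 0.909 and 1.36 CPM in KO and 17.8, 18.5 and 16.9 CPM in WT. It was 19.1-fold lower in KO (log2 fold change -4.26, SE 0.30, with an adjusted p by edgeR of 4.84e-06). Hoxa11, a gene of the limb and kidney, had 4 counts in each KO library and 0 in every WT library, too few to be tested. Hoxa13, used in the hand, foot and hindgut, was at 0 counts in all 6 libraries.

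HoxB also held higher genes towards the 3′ end and lower genes at the 5′ end. Hoxb3 had 58.9, 60.8 and 61.6 CPM in KO and 29.7, 31.8 and 29.2 CPM in WT, a 1.998-fold difference with no overlap (edgeR adjusted p = 1.76e-06). Hoxb4, a hindbrain and cervical gene also used in blood stem cells, had 30.3, 30.5 and 32.3 CPM in KO and 17.7, 19.2 and 19.1 CPM in WT, 1.66-fold higher (edgeR adjusted p = 4.64e-05). Hoxb7 averaged 16.1 ± 0.89 CPM in KO and 10.99 ± 2.26 CPM in WT (SD, n = 3 each), 1.46-fold higher (edgeR adjusted p = 0.0125). Hoxb5 averaged 20.02 ± 0.70 CPM in KO and 15.4 ± 1.51 CPM in WT, 1.3-fold higher (edgeR adjusted p = 0.0092). The call of Hoxb5 was lost with scaling by library totals (adjusted p = 0.0642) and from deposited FPKM (0.141). Hoxb2, a hindbrain gene and the most 3′ HoxB gene with counts, went the other way. It averaged 14.5 ± 1.89 CPM in KO and 22.1 ± 2.01 CPM in WT, 1.53-fold lower in KO (edgeR adjusted p = 0.00215).

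From Hoxb6 on, no HoxB gene except Hoxb7 was higher in KO. Hoxb6 averaged 37.8 ± 0.84 CPM in KO and 38.9 ± 1.29 CPM in WT and missed the threshold (log2 fold change -0.04, SE 0.06, with an adjusted p by edgeR of 0.569), though it was called lower with library totals (adjusted p = 0.0422) and from deposited FPKM (0.0185). Hoxb8 had 7.18, 8.35 and 20.0 CPM in KO and 31.9, 16.8 and 25.8 CPM in WT. KO replicate 3 lay within the WT range, and the gene missed the threshold (log2 fold change -1.07, SE 0.47, with an adjusted p by edgeR of 0.0904). Without KO replicate 3 it was called lower (log2 fold change -1.68, adjusted p = 0.00206), as it was by limma-voom (0.0246) and from deposited FPKM (0.0081).

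Hoxb9 carried the largest difference in absolute level. This gene of the thoracic region had 14.01, 14.2 and 12.6 CPM in the KO libraries, against 154, 152 and 153 CPM in the WT libraries. It was 11.3-fold lower in KO (log2 fold change -3.49, SE 0.06, with an adjusted p by edgeR of 2.94e-09), with SDs of 0.840 CPM in KO and 0.913 CPM in WT. Hoxb13, the most 5′ HoxB gene, known from the tail bud and the prostate, had 0.631, 0 and 0.339 CPM in KO and 16.4, 15.8 and 18.2 CPM in WT. It was 51.0-fold lower (log2 fold change -5.67, SE 0.75, with an adjusted p by edgeR of 0.000795), with a log2 fold change of -6.58 without KO replicate 1. Hoxb1, at the 3′ end, was at 0 counts in all 6 libraries. Across the 9 tested genes of HoxB, paralog number and log2 fold change correlated at a Pearson r of -0.844 and a Spearman rho of -0.70, and across the 9 of HoxA at -0.747 and -0.417. These coefficients describe neighbouring genes counted in the same 6 libraries, and genes are not independent replicates. Hoxa9, Hoxa10, Hoxb9 and Hoxb13 lay far under the other tested genes of their clusters and weigh heavily on the Pearson values.

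**Figure D2:**
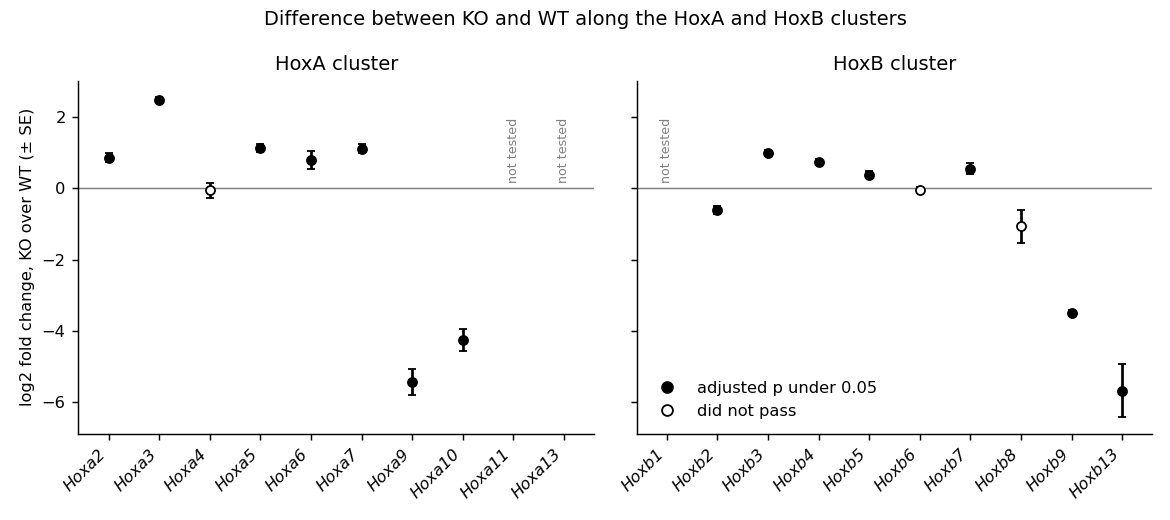
Log2 fold change of KO over WT with its standard error for the tested HoxA (left) and HoxB (right) genes shown in cluster order, filled where the adjusted p is under 0.05 and open where it is not; Hoxa11, Hoxa13 and Hoxb1 are marked as not tested. Hoxa9, Hoxa10, Hoxb9 and Hoxb13 lie between -3.49 and -5.67, under every other tested gene shown.

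HoxC genes were low in both genotypes, and the 3 that were tested were lower in KO. Of these, Hoxc4 and Hoxc5 passed the filter on low counts through their WT counts, so the filter favoured their direction. Hoxc6, a gene of the thoracic region, had 0.733, 1.09 and 0.238 CPM in KO and 3.80, 4.602 and 6.65 CPM in WT. No KO library reached a WT library, and the gene was 7.31-fold lower (log2 fold change -2.87, SE 0.50, with an adjusted p by edgeR of 0.00108). Hoxc5 had 3 counts in the KO libraries together, all in replicate 2, and 214 in the WT libraries together (edgeR adjusted p = 0.000378). The ratio of the scaled sums was 66.2 WT over KO, with an exact binomial 95% interval of 22.4 to 324 that covers counting error only. Its fitted log2 fold change was -5.88 over all libraries and -9.13 without KO replicate 2, which leaves the KO libraries at 0. Hoxc4 averaged 0.243 ± 0.232 CPM in KO and 0.835 ± 0.222 CPM in WT (log2 fold change -1.78, SE 0.67, with an adjusted p by edgeR of 0.0434). Its call was lost without KO replicate 1 (edgeR adjusted p = 0.121), KO replicate 3 (0.10), WT replicate 1 (0.0969), WT replicate 2 (0.0524) or WT replicate 3 (0.114). Without KO replicate 2 its log2 fold change was -2.89.

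The 6 HoxC genes from Hoxc8 to Hoxc13 had at most 37 counts in a genotype and were not tested. Hoxc12 had 0 counts in KO and 11, 8 and 8 counts in the WT libraries. Set against a floor of 3 counts over the KO libraries (0.0174 CPM), it was at least 8.35-fold lower in KO. Hoxc13, a gene of hair and nail, had 0 counts in KO and 0, 12 and 25 counts in WT, at least 11.4-fold lower on the same floor, with the WT counts in 2 of 3 libraries. Without a filter on low counts, edgeR called both lower (adjusted p = 0.0251 for Hoxc12 and 0.0432 for Hoxc13). Hoxc8, Hoxc9, Hoxc10 and Hoxc11 had between 2 and 9 counts in KO and between 4 and 16 in WT, and their groups overlapped.

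In HoxD, Hoxd4 alone passed the filter. This hindbrain and cervical gene had 47, 84 and 101 counts in the KO libraries (0.801, 1.53 and 1.71 CPM), against 0 counts in all WT libraries. It was at least 83.3-fold higher in KO against a floor of 3 counts over the WT libraries (0.0161 CPM; edgeR adjusted p = 0.000155). Hoxd3 had 11 counts in KO replicate 1 and none elsewhere, and Hoxd8 had 20 counts in KO replicate 2 and none elsewhere. Hoxd11 had 4 counts in WT replicate 3 alone. Hoxd1, Hoxd9, Hoxd10, Hoxd12 and Hoxd13 were at 0 counts in all 6 libraries, which together with Hoxa13 and Hoxb1 makes 7 of 39 Hox genes without a read.

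Paralogs of the same group in different clusters did not always go together. Both members of group 7, Hoxa7 and Hoxb7, were higher in KO, as were Hoxa3 and Hoxb3 in group 3. The tested members of group 9, Hoxa9 and Hoxb9, were both lower. In group 2, Hoxa2 was higher and Hoxb2 lower, and in groups 4, 5 and 6 the HoxC member was lower while at least 1 HoxA, HoxB or HoxD member was higher. The HoxC members of groups 4 and 5 passed the filter on low counts through their WT counts.

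To compare levels between genes, values per gene length are needed, and the deposited FPKM (fragments scaled to gene length and library depth) was used. In KO cells the highest Hox gene was Hoxa3 at 41.7 ± 2.07 FPKM (SD, n = 3), followed by Hoxb3 at 19.6 ± 0.98 and Hoxb6 at 18.2 ± 0.58 FPKM, each range apart from the next. Then came Hoxb7, Hoxa7, Hoxb4 and Hoxa5, between 10.02 and 10.8 FPKM, whose ranges overlapped from one to the next. In WT cells the highest was Hoxb9 at 54.3 ± 0.46 FPKM, followed by Hoxb6 at 20.98 ± 0.86 FPKM, each apart from the next. Hoxb2, Hoxa10, Hoxb8 and Hoxb3 followed between 9.92 and 10.7 FPKM with overlapping ranges. Hoxb9 was at 4.43 ± 0.275 FPKM in KO, and Hoxa3 was at 7.10 ± 0.41 FPKM in WT. The order depended on the scale in both genotypes. By CPM per kilobase of annotated exons the highest gene in KO was Hoxb6 at 19.2 ± 0.43, above Hoxa3 at 16.8 ± 0.84 and Hoxb3 at 14.2 ± 0.32, with ranges apart. In WT Hoxb9 and Hoxb6 were again the highest, at 59.5 ± 0.35 and 19.8 ± 0.66 CPM per kilobase. Below them the WT order changed. Hoxb13 was at rank 9 by FPKM and rank 4 by CPM per kilobase, and Hoxb2 at rank 3 and rank 8.

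The shares of the summed Hox level give the same contrast per library. Genes of groups 9 to 13 made up 3.22%, 3.06% and 3.03% of the summed Hox FPKM in the KO libraries, against 42.8%, 42.1% and 40.3% in the WT libraries. Groups 1 to 3 made up 49.8%, 49.4% and 45.2% in KO and 17.4%, 20.02% and 18.2% in WT. Groups 4 to 8 made up 47.0%, 47.6% and 51.7% in KO and 39.8%, 37.8% and 41.5% in WT. The mean paralog number weighted by level was 4.44 ± 0.10 in KO and 6.80 ± 0.09 in WT (SD, n = 3 each), and on HoxB alone 5.03 ± 0.12 in KO and 7.11 ± 0.07 in WT. As sums over members, these values were given no test.

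**Figure D3:**
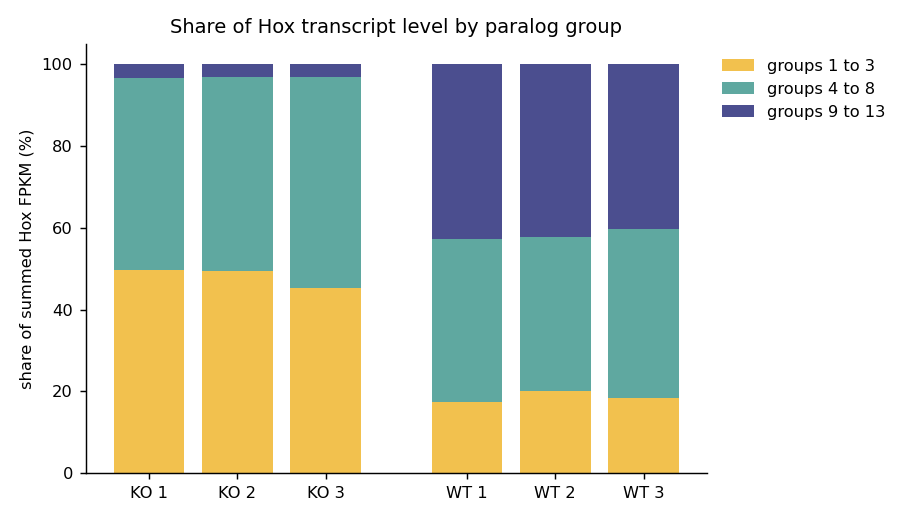
Share of the summed deposited FPKM of all 39 Hox genes taken by paralog groups 1 to 3, 4 to 8 and 9 to 13, stacked to 100% for each KO library (left) and WT library (right). Groups 9 to 13 take 3.03% to 3.22% in the KO libraries and 40.3% to 42.8% in the WT libraries.

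The summed level itself differed less. All Hox genes together reached 159.8 to 166.1 FPKM in KO and 181.7 to 190.2 FPKM in WT. HoxA took 49.8 ± 0.75% of that sum in KO and 25.5 ± 0.74% in WT, and HoxB 49.4 ± 0.57% in KO and 71.98 ± 0.43% in WT. HoxC took 0.332 ± 0.173% in KO and 2.56 ± 0.52% in WT, and HoxD under 1% in each library. With CPM per kilobase of annotated exons in place of FPKM, groups 9 to 13 took 4.25 ± 0.29% in KO and 44.7 ± 0.77% in WT, and groups 1 to 3 took 34.9 ± 1.97% in KO and 14.2 ± 1.24% in WT.

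Other loci inside the clusters are transcribed on the strand opposite to the Hox genes, and 10 of the 39 Hox genes share exon bases with such a locus in GENCODE M21. The sources used here do not give the strand setting of the counts, and reads in shared stretches cannot be assigned. Hoxa3 shares 25.4% of its exon bases with antisense loci, among them 5730596B20Rik and Hoxaas2. 5730596B20Rik, annotated as protein coding in that release, had 60.8, 58.9 and 58.6 CPM in KO and 2.85, 2.68 and 1.49 CPM in WT, a 25.3-fold difference with no overlap (edgeR adjusted p = 1.02e-06). Hoxaas2 averaged 19.8 ± 3.12 CPM in KO and 4.96 ± 1.23 CPM in WT, Gm15050 13.6 ± 1.94 CPM in KO and 3.22 ± 0.75 CPM in WT, and Hoxaas3 3.82 ± 0.32 CPM in KO and 0.941 ± 0.305 CPM in WT. These 3 loci start between Hoxa2 and Hoxa4 and were called higher (edgeR adjusted p = 3.20e-05, 2.76e-05 and 0.000236). Hotairm1, a noncoding RNA of the HoxA cluster, averaged 8.89 ± 1.29 CPM in KO and 6.64 ± 1.18 CPM in WT and missed the threshold (edgeR adjusted p = 0.0621).

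In HoxB, Hoxb3 shares 52.9% of its exon bases, and Hoxb2 27.3%, with the antisense Hoxb3os. Hoxb3os averaged 5.70 ± 0.57 CPM in KO and 8.26 ± 0.96 CPM in WT and was lower (edgeR adjusted p = 0.011), the direction of Hoxb2 and not of Hoxb3. Hoxb5os averaged 2.89 ± 0.51 CPM in KO and 2.05 ± 0.23 CPM in WT (edgeR adjusted p = 0.0841). Gm53, between Hoxb9 and Hoxb13, averaged 10.3 ± 0.98 CPM in KO and 12.2 ± 0.90 CPM in WT. Every KO library was under every WT library, but Gm53 missed the threshold (log2 fold change -0.24, edgeR adjusted p = 0.10). Both Hox genes beside it were called lower. Hotair, a noncoding RNA of the HoxC cluster known for its link to Polycomb, had 0 counts in KO and 24, 9 and 15 counts in WT, and was not tested. Hottip and Haglr were at 0 counts in all 6 libraries. Hoxd3 and Hoxd4 share 62.3% and 52.3% of their exon bases with same-strand genes, each other included. Hoxa5, Hoxa6, Hoxa10, Hoxb4, Hoxb6, Hoxb7, Hoxb8, Hoxb9, Hoxb13, Hoxc4 and Hoxc6 share none with any annotated gene.

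**Figure D4:**
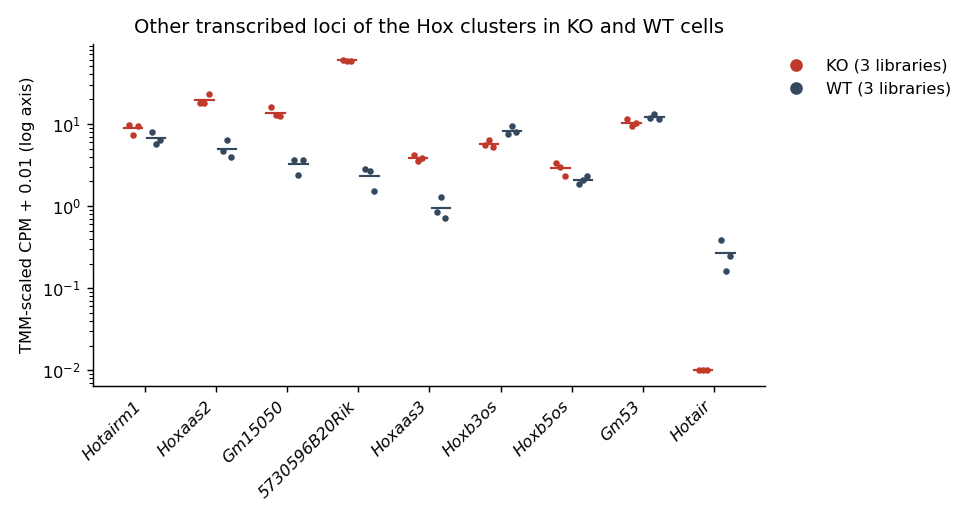
TMM-scaled CPM plus 0.01 on a log axis for other loci of the Hox clusters, with a point for each KO library (red, left) and WT library (dark blue, right) and a line at each mean. 5730596B20Rik, Hoxaas2, Gm15050 and Hoxaas3, which lie in HoxA, are higher in all KO libraries, and Hotair is at 0 counts in KO.

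Genes flanking the clusters did not share one direction. Of 20 tested, 6 were higher in KO, 10 lower and 4 did not pass, with a median log2 fold change of -0.25, against 69.3% of all tested genes passing. Beside HoxA, Skap2, an adaptor protein gene on the 3′ side, was at 88.7 ± 3.69 CPM in KO and 45.7 ± 2.82 CPM in WT, 1.94-fold higher (edgeR adjusted p = 2.87e-06). On the far side, Evx1, the homeobox gene beyond Hoxa13, was at 0 counts in all 6 libraries. Beyond it, Hibadh, of valine breakdown, was 1.55-fold lower and Tax1bp1, an autophagy receptor, 1.54-fold lower. Snx10, beyond Skap2, did not pass (edgeR adjusted p = 0.148).

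Beside HoxB, Ttll6, a tubulin-modifying enzyme gene next to Hoxb13, had 1.96, 0.636 and 1.14 CPM in KO and 4.39, 5.80 and 4.80 CPM in WT, 4.003-fold lower with no overlap (edgeR adjusted p = 0.00156). Cbx1, a heterochromatin protein, was 2.42-fold lower and Snx11 1.21-fold lower, and Nfe2l1 did not pass (edgeR adjusted p = 0.382). Beside HoxC, Calcoco1, the gene next to Hoxc13, was at 207 ± 8.88 CPM in KO and 57.3 ± 2.72 CPM in WT, 3.62-fold higher (edgeR adjusted p = 3.25e-08), opposite in direction to the tested HoxC genes. Cbx5, another heterochromatin protein, was 2.45-fold lower, Atp5g2 1.33-fold and Copz1 1.13-fold higher, and Smug1 and Hnrnpa1 did not pass (edgeR adjusted p = 0.831 and 0.50). Beside HoxD, Mtx2, next to Hoxd1, was 1.48-fold lower, and Lnpk, beyond Hoxd13, 2.72-fold lower. Atp5g3 was 1.60-fold and Hnrnpa3 2.01-fold lower.

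The TALE cofactors were all expressed, and all 9 passed the test, 6 higher and 3 lower in KO, where 69.3% of all tested genes passed. Pknox2, a partner of Pbx proteins, had 18.1, 15.7 and 18.1 CPM in KO and 4.39, 5.00 and 4.82 CPM in WT, 3.65-fold higher with no overlap (edgeR adjusted p = 1.73e-06). Pbx2 was 1.62-fold higher (edgeR adjusted p = 3.16e-05). Meis2, a Pbx partner that binds DNA beside Hox proteins, had 87.8, 86.0 and 86.2 CPM in KO and 123, 129 and 133 CPM in WT, 1.48-fold lower (edgeR adjusted p = 1.22e-05). Meis1, Meis3 and Pbx4 were higher by 1.51-fold to 1.66-fold, Pbx3 was 1.63-fold lower and Pknox1 3.05-fold lower.

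**Figure D5:**
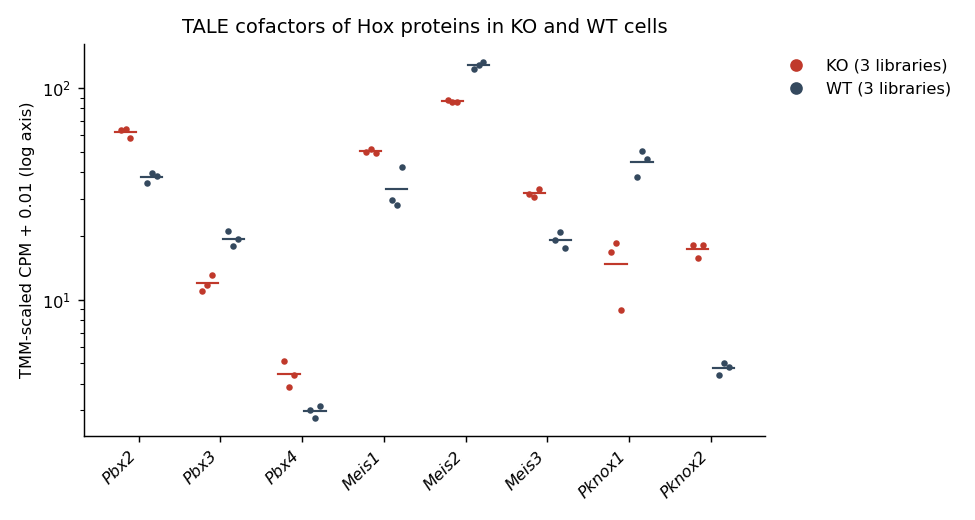
TMM-scaled CPM plus 0.01 on a log axis for 8 TALE cofactor genes, with a point for each KO library (red, left) and WT library (dark blue, right) and a line at each mean. Pknox2 lies at 15.7 to 18.1 CPM in KO, against 4.39 to 5.00 CPM in WT, and Meis2 at 86.0 to 87.8 CPM in KO, against 123 to 133 CPM in WT.

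Sister homeobox genes outside the clusters were mostly silent. Of 8 Evx and ParaHox genes, which share ancestry with the Hox clusters, only Pdx1 passed the filter. Pdx1, known from pancreas and duodenum, had 0 counts in KO and 4.80, 5.94 and 7.08 CPM in WT, at least 342-fold lower against the floor of 3 counts over the KO libraries (edgeR adjusted p = 4.02e-06). The Cdx genes, which activate Hox genes of the trunk in embryos, had at most 9 counts in a genotype.

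Chromatin regulators of the clusters were read gene by gene in 2 lists. Of 29 Polycomb genes, 6 were higher, 16 lower and 7 did not pass, with a median log2 fold change of -0.27. Over all tested genes 35.1% were higher and 34.2% lower, with a median of 0.03. The histone-binding subunit Rbbp7 averaged 179 ± 2.64 CPM in KO and 445 ± 14.3 CPM in WT, and its relative Rbbp4 averaged 210.0 ± 3.83 CPM in KO and 503.9 ± 31.3 CPM in WT. Cbx7, a subunit that reads the Polycomb mark, was at 10.8 ± 0.91 CPM in KO and 52.0 ± 4.59 CPM in WT. Phf19, an accessory subunit, was at 5.82 ± 0.18 CPM in KO and 24.3 ± 0.96 CPM in WT. All 4 fell (edgeR adjusted p = 3.52e-08, 1.46e-07, 2.17e-07 and 2.50e-07). Of 21 trithorax and MLL genes, 4 were higher, 14 lower and 3 did not pass, with a median of -0.50, against the same 35.1% higher and 34.2% lower over all tested genes. Wdr5, a core subunit of MLL complexes, fell to 39.9 ± 1.09 CPM in KO, against 150.8 ± 7.47 CPM in WT (edgeR adjusted p = 2.87e-08). Aff1 was at 105.5 ± 1.62 CPM in KO and 295.3 ± 7.46 CPM in WT, Psip1, which tethers MLL to chromatin, at 90.5 ± 3.72 CPM in KO and 278 ± 26.2 CPM in WT, and Kat7 at 62.4 ± 3.53 CPM in KO and 125.8 ± 1.31 CPM in WT. These 3 fell as well (edgeR adjusted p = 2.10e-08, 2.26e-07 and 8.02e-07). Both lists held more lower than higher genes.

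Retinoid and other signalling genes that act on Hox clusters were mostly higher. Of 18 tested, 13 were higher and 5 lower in KO, with a median log2 fold change of 1.29, where 35.1% of all tested genes were higher and 34.2% lower. Rarg, a retinoic acid receptor, was at 290.5 ± 1.40 CPM in KO and 112.5 ± 3.97 CPM in WT (edgeR adjusted p = 3.71e-08). Crabp1, a retinoic acid carrier, was at 14.2 ± 2.54 CPM in KO and 1.26 ± 0.13 CPM in WT (edgeR adjusted p = 5.81e-07). Cyp26b1, which degrades retinoic acid, was at 1.86 ± 0.27 CPM in KO and 14.2 ± 1.46 CPM in WT (edgeR adjusted p = 7.59e-07).

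Regional transcription factors outside the clusters also differed. Of 57 listed, 41 were tested, 21 higher, 17 lower and 3 not passing, with a median log2 fold change of 0.48, where 69.3% of all tested genes passed. Irx1 was at 101.6 ± 2.43 CPM and Hand2 at 56.2 ± 0.94 CPM in KO, and both had 0 counts in all WT libraries. Against the floor of 3 counts over the WT libraries they were at least 6299-fold and 3485-fold higher. Hand2 is known from heart, limb and pharyngeal arches. Pax3, a gene of somite and neural crest, was at 1.89 ± 0.27 CPM in KO and 46.0 ± 3.46 CPM in WT (edgeR adjusted p = 2.34e-08). Tbx4, Tbx5 and Pitx1, which mark limb and heart fields, had at most 4 counts in a genotype.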

How the data were processed

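RNA was sequenced from 3 KO and 3 WT libraries. Per the submitters' processing notes, the tools named were CASAVA 1.8, HISAT2, SAMtools 1.3.1 and edgeR, with the build GRCm39. The authors deposited raw read counts per gene, and FPKM per gene in the same table. The sources used here do not give the annotation release or the strand setting.

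Counts were fitted with edgeR 4.0.16 (R 4.3.3), with filterByExpr, TMM scaling, the robust quasi-likelihood test and Benjamini-Hochberg adjustment over 18732 tested genes at 0.05. CPM was TMM-scaled. Deposited FPKM served for levels between genes and, as log2(FPKM + 0.1) in limma 3.58.1, as an alternative; fold changes on that scale understate the change of low genes. The other alternatives were DESeq2 1.42.0 with its size factors or Wald test, scaling by library totals, no filter, a mean of 1 CPM, limma-voom, a replicate block, an adjusted p of 0.01, and each library left out. CPM per kilobase of exons, for shares and order of levels, was added after seeing the data. The fit was tested on simulated data. Ensembl identifiers were matched to symbols for 55394 of 56393 genes (98.23%). GENCODE M21 gave exon overlap, gene order and lengths, and RefSeq the promoters.

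The members and lists were chosen with earlier results of these data known. All Hox genes are named, apart from items that are not reported here. From each other list up to 4 genes of smallest p and at least 5 CPM are named, and cluster RNAs and flanking genes of at least 1 CPM. Other TALE genes, Hotair, silent genes and single markers were named after their values were seen.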

Additional observations from a re-analysis of the deposited data

How the results depend on the processing

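Over all alternatives, 8 to 11 Hox genes were called higher and 7 to 10 lower, with 11 and 8 as reported. With a mean of at least 1 CPM as the cutoff, 16 Hox genes were detected in KO and 20 in WT. At 0.5 CPM these numbers were 18 and 21, at 5 CPM 14 and 17, and at 0.1 FPKM 19 and 22. The calls of Hoxa2, Hoxa3, Hoxa5, Hoxa7, Hoxa9, Hoxa10, Hoxb2, Hoxb3, Hoxb4, Hoxb7, Hoxb9, Hoxb13, Hoxc5, Hoxc6 and Hoxd4 held under all 14 gene-level alternatives. The stricter threshold of 0.01 was not among these 14, and Hoxb7 missed it (edgeR adjusted p = 0.0125). Of 307 values for single genes, 281 kept direction and side of the threshold, 18 lost the call, 6 gained one and 2 reversed. The reversals were of Hoxa4, which passed in neither, with log2 fold changes of 0.13 without KO replicate 2 and 0.04 without WT replicate 3, and a range of -0.24 to 0.13 over the libraries left out. Same-numbered KO and WT libraries did not deviate together (r = -0.0237, 0.018 and -0.00904). The values thus showed no pairing by number, which does not tell how the libraries were prepared. With a replicate block 10 genes were higher and 8 lower, and Hoxc4 (edgeR adjusted p = 0.0756) lost its call while Hoxb8 (0.0478) gained one. By CPM per kilobase of exons, groups 1 to 3, 4 to 8 and 9 to 13 took 34.9%, 60.9% and 4.25% of the Hox level in KO, and groups 1 to 3 and 9 to 13 took 14.2% and 44.7% in WT. On that scale Hoxb6 and not Hoxa3 was the highest in KO, and the WT order below Hoxb9 and Hoxb6 changed as well. The cause of these shifts was not tested. Of the 17 untested genes, 10 had reads, at most 37 in a genotype, and 7 had none, so a difference in them was mostly not detectable at this depth.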
